A study of Mus musculus with 13 samples.

Results

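The transcripts described here are those of 49 genes of the kinetochore, the spindle assembly checkpoint and the mitotic spindle, taken by gene symbol from a list of genes with a role in chromosome segregation. All 49 were present among the 35967 gene symbols of the table, and all 49 passed the filter on low values that 14322 genes passed. RNA was sequenced from glomeruli of wildtype male Balb/c mice, 1 library per mouse. MN mice received 2 mg of rabbit anti-THSD7A IgG intraperitoneally, an antibody to an antigen on podocyte foot processes that is used as a model of membranous nephropathy (MN), and were studied at day 1 (n = 4) or day 5 (n = 4). Control mice received 2 mg of control rabbit IgG (n = 5). Controls of both days form 1 group, and the labels do not give the day of each control mouse, so both MN comparisons share the same control libraries and the day of a control cannot be separated from its other differences. All groups received foreign rabbit IgG, and glomeruli were taken out with magnetic beads after perfusion, so a library holds every cell type of the glomerulus together.

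During mitosis each chromosome is held by its kinetochore, a layered protein assembly that is built on centromeric chromatin marked by the histone variant CENP-A and that binds spindle microtubules through the KMN network. Kinetochores without microtubules activate the spindle assembly checkpoint, in which Mad and Bub proteins withhold Cdc20 from the anaphase-promoting complex until all chromosomes are attached, and the chromosomal passenger complex corrects wrong attachments. Many of these genes are transcribed mainly in the late part of the cell cycle, and mature podocytes are known as cells that rarely divide.

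Most of these genes were higher at day 5 after anti-THSD7A IgG and none was called changed at day 1. At day 5, 41 of the 49 genes were called higher than in control mice and 0 were called lower, against 2.42% of all tested genes called higher. Their median log2 fold change was 1.57 (range 0.01 to 2.99), beside a median of -0.003 over all tested genes. Over the 31 genes that pass the filter on low values without the day 5 libraries the median was 0.99. On the log2 scale used here the largest change was that of *Birc5*, which encodes survivin, with a mean TPM of 1.38 ± 0.557 in control mice (SD, n = 5) and 13.9 ± 3.0 at day 5 (SD, n = 4), a ratio of 10.1. By the ratio of mean TPM *Kntc1* stood above it, with means of 0.386 in controls and 6.18 at day 5. TPM is a gene's share of the transcripts of a library, corrected for transcript length. Levels, sums and overlaps of libraries are given in TPM as deposited. Scaled TPM is that value after a further scaling that puts libraries on a common level, and it was used for the fold changes and their tests. A gene was called when its limma p-value, adjusted over all tested genes by the Benjamini-Hochberg method, was under 0.05 and its absolute log2 fold change was above 0.5. Fold changes are differences of log2(scaled TPM + 0.5), which understates the change of low genes. In bulk samples, more cells of a type and more RNA per cell cannot be told apart. The read depth behind these TPM is unknown, and no counting interval was given.

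**Figure D1:**
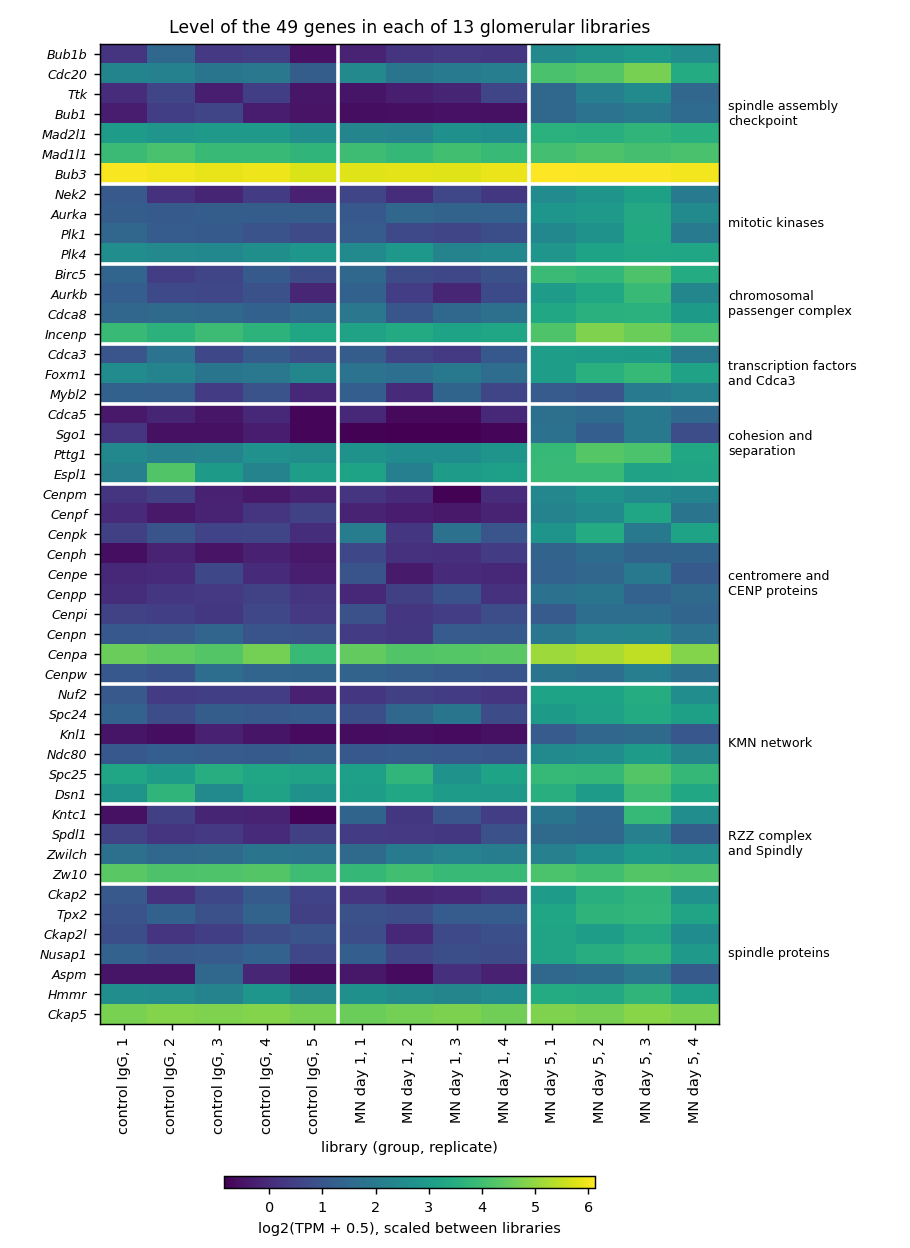
Colour gives log2(TPM + 0.5) of each of the 49 genes (rows, grouped by role) in each of the 13 libraries (columns, by group and replicate). The values are TPM as deposited, although the colour bar names them scaled. Most rows are lighter in the 4 day 5 MN libraries than in the 9 others, while *Bub3*, *Mad1l1*, *Zw10* and *Ckap5* are light across all 13.

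The libraries of day 5 MN and control mice did not overlap for 40 of the 49 genes, all higher at day 5, against 5.07% of all tested genes. Part of these 40, such as *Cdca5*, passed the filter on low values only through their day 5 libraries, so their separation is no support for the rise. Summed over the 49 genes, TPM lay between 210 and 263 in control libraries, between 223 and 233 at day 1 and between 406 and 579 at day 5. Within day 5, replicate 3 was the highest library for 37 of the 49 genes and replicate 4 the lowest for 31. Without replicate 3, 38 genes were called, and without replicate 4, 40. The size of the rise thus differed between day 5 libraries, and with 1 library per mouse the mouse and its preparation cannot be told apart. In controls, replicate 5 was the lowest library for 26 of the 49 genes. The lowest day 5 sum was above the highest sum of the other groups.

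Of the 49 genes, 31 reached a TPM of 1 in at least 4 of the 9 control and day 1 libraries, and 23 of these 31 were called higher at day 5. A further 13 reached it in 1 to 3 of those libraries. These were *Bub1*, *Bub1b*, *Ttk*, *Cenpe*, *Cenph*, *Cenpi*, *Cenpp*, *Nuf2*, *Kntc1*, *Spdl1*, *Ckap2*, *Aspm* and *Nek2*. The last 5 (*Cdca5*, *Cenpf*, *Cenpm*, *Knl1* and *Sgo1*) reached it in none, and all of the 13 and the 5 were called. The genes of these last sets passed the filter through their day 5 libraries. Their count, separation and p-values are thus no support for the rise. In the role groups below, counts of called genes stand against the 2.42% of all tested genes called higher. Of the 6 genes with a mean TPM above 10 in controls, *Incenp* and *Cenpa* were called, *Bub3*, *Mad1l1*, *Zw10* and *Ckap5* were not, and the median log2 fold change was 0.21.

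**Figure D2:**
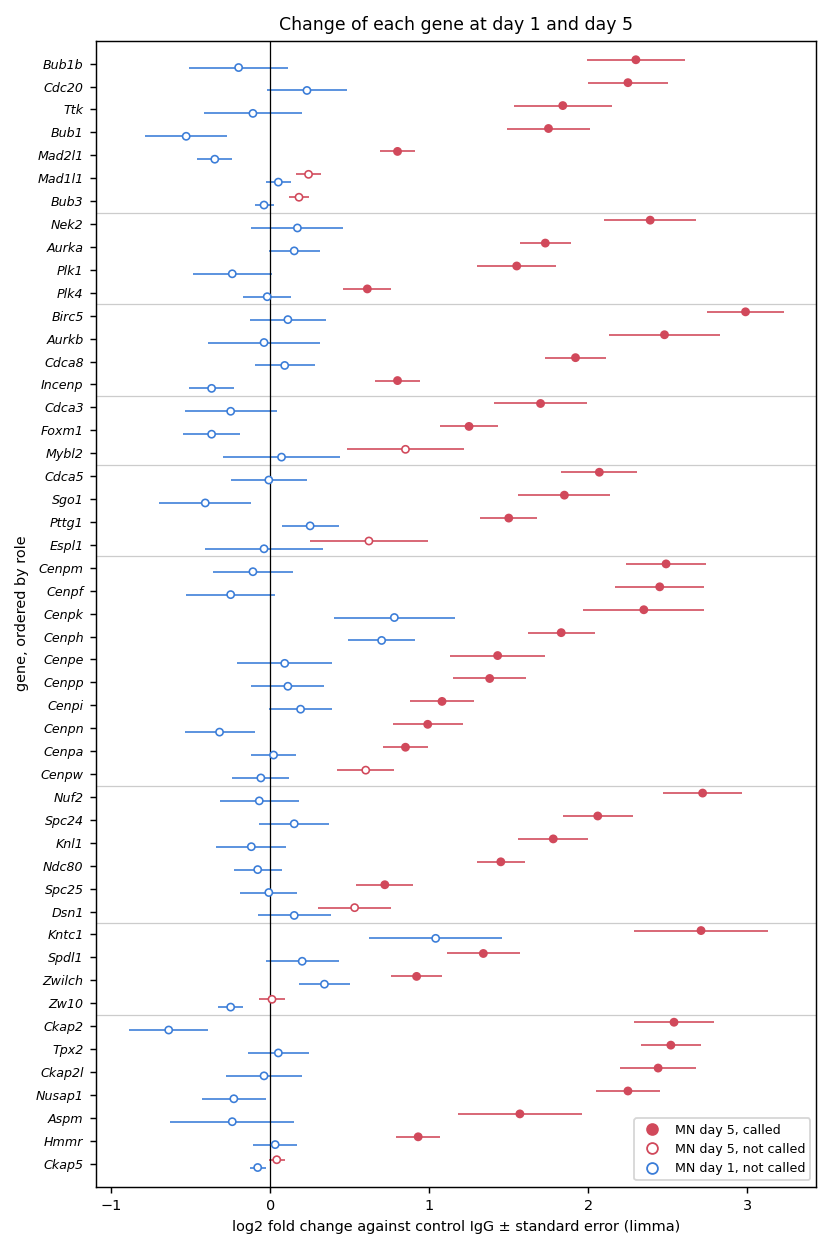
Points give the limma log2 fold change against control IgG of each gene at day 1 (blue) and day 5 (red), bars its standard error, and filled points the called genes. The 41 filled points are all at day 5, and day 1 points lie between -0.64 and 1.04 with none filled.

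Promoters of many of these genes are known to share a cell cycle genes homology region (CHR), the element through which the DREAM and MuvB complexes act, and CCAAT boxes, which bind NF-Y. RefSeq promoter windows reaching from 250 bases before to 50 bases after the gene start (GRCm38.p6) were found for 43 of the 49 genes as 47 windows, and every window matched the GRCm39 genome at 1 place. Both strands were searched for CHR as TTTGAA or TTCGAA and for CCAAT, each counted also where it overlapped another match. A CHR was present in 29 of the 47 windows (61.7%), against 19.2% of all 32851 windows. CCAAT was present in 32 (68.1%), against 37.4% of all windows, and both together in 25 (53.2%), against 7.52%. The genes that were not called at day 5 held them too. CHR was found in 62.2% of the 37 windows of called genes and in 60% of the 10 windows of the 8 genes not called, and CCAAT in 73% and 50%. *Bub3* and *Mad1l1* had more than a single window among these 10, and the windows of *Bub3* overlap and share their matches. Among the 37, *Cenpk* had more than a single window, each with CCAAT and none with CHR. A match is a description of the sequence and no evidence that a factor binds there.

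Stretches of 180 bases around the start, 150 before it and 30 from it, are printed for 3 called genes with both elements, for *Ckap5*, which holds both and did not pass the test at day 5, and for *Birc5*, which had the largest log2 fold change and holds neither in its window. They are written 5′ to 3′ on the gene's strand, with CHR and CCAAT matches of either strand in capitals (TTCAAA and ATTGG are the reverse-strand forms). In GRCm39 they lie at chr2:127673750-127673929, minus strand (*Bub1*), chr4:118294511-118294690, minus strand (*Cdc20*), chr1:189420254-189420433, minus strand (*Cenpf*), chr2:91356957-91357136, plus strand (*Ckap5*) and chr11:117739913-117740092, plus strand (*Birc5*), and each spans the annotated start of its gene in GENCODE.
Bub1: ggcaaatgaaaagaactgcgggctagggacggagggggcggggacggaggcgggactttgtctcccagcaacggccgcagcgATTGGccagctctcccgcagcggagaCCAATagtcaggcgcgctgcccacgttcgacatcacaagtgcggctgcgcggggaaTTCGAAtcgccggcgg
Cdc20: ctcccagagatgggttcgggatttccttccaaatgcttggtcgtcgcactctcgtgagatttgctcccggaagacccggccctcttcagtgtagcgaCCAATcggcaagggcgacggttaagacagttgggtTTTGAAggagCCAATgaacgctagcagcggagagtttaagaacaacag
Cenpf: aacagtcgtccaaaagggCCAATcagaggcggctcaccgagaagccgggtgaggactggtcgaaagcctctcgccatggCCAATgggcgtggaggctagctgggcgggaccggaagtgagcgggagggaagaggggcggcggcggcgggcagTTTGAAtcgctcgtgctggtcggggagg
Ckap5: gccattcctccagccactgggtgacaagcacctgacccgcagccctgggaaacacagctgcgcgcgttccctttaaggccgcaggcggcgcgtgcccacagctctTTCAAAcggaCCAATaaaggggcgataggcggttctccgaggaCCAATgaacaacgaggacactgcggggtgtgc
Birc5: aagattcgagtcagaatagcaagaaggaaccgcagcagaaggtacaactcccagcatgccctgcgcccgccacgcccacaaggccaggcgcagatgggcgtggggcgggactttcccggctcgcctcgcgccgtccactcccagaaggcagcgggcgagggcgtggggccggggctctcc

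In the spindle assembly checkpoint, 5 of 7 genes were called higher at day 5 (median log2 fold change 1.75). *Bub1b* had a TPM of 0.649, 2.34, 0.728, 0.830 and 0.199 in the control libraries, 0.388, 0.645, 0.739 and 0.687 at day 1 and 4.94, 6.09, 6.77 and 5.44 at day 5. This gene encodes BubR1, the checkpoint protein that holds Cdc20 inactive, and its 4 day 5 libraries lay above every control library, of which replicate 2 was the highest (log2 fold change 2.30, standard error 0.31, limma adjusted p = 0.00058). *Cdc20* had a TPM of 4.39, 4.17, 3.14, 3.35 and 1.82 in the control libraries, 4.92, 3.10, 3.46 and 3.89 at day 1 and 16.8, 18.8, 25.2 and 10.3 at day 5. Cdc20 is both the target of the checkpoint and the activator of the anaphase-promoting complex, and its lowest day 5 library, replicate 4, was still above all controls (log2 fold change 2.25, standard error 0.25, limma adjusted p = 0.00013). The kinase genes *Ttk* (Mps1, 1.84) and *Bub1* (1.75), which start checkpoint signalling, and *Mad2l1* (0.80), the inhibitor that binds Cdc20, were called higher as well. *Bub3* had a TPM of 66.2, 62.6, 59.1, 61.0 and 53.1 in the control libraries, 54.4, 57.1, 54.9 and 60.5 at day 1 and 69.5, 67.0, 67.3 and 63.9 at day 5. *Bub3*, the partner that carries Bub1 and BubR1 to kinetochores, was the most abundant of the 49 genes in every group, and its day 5 libraries overlapped with the controls (log2 fold change 0.18, standard error 0.06, limma adjusted p = 0.112). *Mad1l1*, which recruits Mad2, was not called either (log2 fold change 0.24, limma adjusted p = 0.105). The ratio of the highest to the lowest mean level among *Bub1*, *Bub1b*, *Bub3*, *Mad2l1* and *Mad1l1* was 111 in control mice, 320 at day 1 and 23.8 at day 5. *Bub1* was the lowest in each group, at a mean TPM of 0.543 in controls. *Bub1*, *Bub1b* and *Ttk* passed the filter on low values only through their day 5 libraries. The calls and separation of these genes are thus no support for the rise.

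The RZZ complex of Rod, ZW10 and Zwilch and its partner Spindly load dynein and Mad1 onto kinetochores, and 3 of the 4 genes were called higher at day 5, with a median of 1.13. *Kntc1* had a TPM of 0.186, 0.874, 0.416, 0.374 and 0.0784 in the control libraries, 2.15, 0.721, 1.48 and 0.820 at day 1 and 3.14, 2.37, 13.7 and 5.48 at day 5. *Kntc1* encodes Rod, and its day 5 values spread widely, with replicate 3 far above the others and all 4 above every control (log2 fold change 2.71, standard error 0.42, limma adjusted p = 0.00148). *Spdl1* had a TPM of 0.934, 0.659, 0.738, 0.482 and 0.873 in the control libraries, 0.812, 0.740, 0.721 and 1.33 at day 1 and 2.42, 2.35, 4.09 and 1.82 at day 5. For *Spdl1*, which encodes Spindly, the lowest day 5 library also stood above the highest control (log2 fold change 1.34, standard error 0.23, limma adjusted p = 0.00304). *Zwilch* rose by less (log2 fold change 0.92, standard error 0.16, limma adjusted p = 0.00403). *Zw10* had a TPM of 19.7, 17.6, 17.9, 18.6 and 15.2 in the control libraries, 13.5, 15.7, 14.3 and 13.9 at day 1 and 17.4, 15.6, 18.8 and 17.9 at day 5. *Zw10*, which also acts in membrane traffic outside mitosis, overlapped between day 5 and control mice, with a log2 fold change of 0.01 (limma adjusted p = 0.986), the smallest of the 49 genes. Its sign at day 5 was negative without further scaling of the TPM, at -0.03. Among the subunits of the RZZ complex, the highest mean level was 46.2 times the lowest in controls and 3.17 times at day 5. In single libraries this ratio ran from 20.2 to 194 in controls and from 2.77 to 6.58 at day 5. The lowest in controls was *Kntc1*, at a mean TPM of 0.386. *Kntc1* and *Spdl1* passed the filter on low values only through their day 5 libraries, so their calls and separation are no support for the rise.

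All 4 genes of the chromosomal passenger complex were called higher at day 5 (median log2 fold change 2.20). *Birc5* had a TPM of 2.20, 0.822, 1.03, 1.68 and 1.16 in the control libraries, 2.30, 1.16, 1.05 and 1.35 at day 1 and 14.4, 13.1, 17.7 and 10.4 at day 5. Survivin directs the complex to centromeres, and its day 5 libraries began at more than 4 times the level of the highest control (log2 fold change 2.99, standard error 0.24, limma adjusted p = 1.7e-05). *Aurkb* had a TPM of 1.85, 1.12, 1.05, 1.32 and 0.433 in the control libraries, 1.97, 0.843, 0.437 and 1.14 at day 1 and 7.38, 9.30, 14.1 and 4.56 at day 5. *Aurkb*, the Aurora B kinase that destabilises wrong attachments, had its lowest values in control replicate 5 and in day 1 replicate 3, and its day 5 libraries did not overlap with either group (log2 fold change 2.48, standard error 0.35, limma adjusted p = 0.00077). *Incenp* had a TPM of 13.8, 11.8, 14.7, 12.2 and 9.25 in the control libraries, 8.42, 10.1, 8.75 and 9.03 at day 1 and 18.1, 27.2, 23.1 and 17.3 at day 5. *Incenp*, the scaffold that activates Aurora B, was already the most abundant subunit in controls and had the smallest change of the 4 (log2 fold change 0.80, standard error 0.14, limma adjusted p = 0.00461). *Cdca8*, which encodes borealin, rose as well (log2 fold change 1.92). The mean level of *Incenp* was 10.7 times that of *Aurkb* in controls, 8.27 times at day 1 and 2.43 times at day 5. In single libraries the ratio of the highest to the lowest subunit ran from 7.47 to 21.4 in controls and from 1.99 to 3.80 at day 5, without overlap.

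All 4 mitotic kinases outside that complex were called higher at day 5, with a median of 1.64. *Nek2* had a TPM of 1.64, 0.592, 0.411, 0.778 and 0.355 in the control libraries, 1.01, 0.539, 1.05 and 0.717 at day 1 and 5.24, 6.24, 8.18 and 3.61 at day 5. *Nek2*, a kinase that separates centrosomes, was apart at day 5 although control replicate 1 stood above the other controls (log2 fold change 2.39, standard error 0.29, limma adjusted p = 0.00023). It passed the filter on low values only through its day 5 libraries, so its call and separation are no support for the rise. *Aurka* had a TPM of 1.81, 1.68, 1.79, 1.80 and 1.81 in the control libraries, 1.60, 2.22, 2.10 and 2.02 at day 1 and 6.52, 7.05, 9.81 and 5.03 at day 5. Controls of *Aurka*, the Aurora A kinase of spindle poles, were close to each other, and the lowest day 5 library was well above them (log2 fold change 1.73, standard error 0.16, limma adjusted p = 5.0e-05). *Plk1*, the Polo-like kinase that acts from mitotic entry to cytokinesis, had a log2 fold change of 1.55. *Plk4* had a TPM of 5.40, 4.85, 4.78, 5.72 and 6.51 in the control libraries, 5.07, 6.75, 4.32 and 4.84 at day 1 and 6.43, 8.73, 9.47 and 9.14 at day 5. *Plk4*, the kinase of centriole duplication, was called with overlapping libraries, since day 5 replicate 1 was below control replicate 5 (log2 fold change 0.61, standard error 0.15, limma adjusted p = 0.0279). Its call was lost without control replicate 1, 2 or 3 or day 5 replicate 2, 3 or 4, with limma adjusted p-values of 0.055 to 0.086.

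Of 10 genes of centromeric chromatin and CENP proteins, 9 were called higher at day 5, against 2.42% of all tested genes. The libraries of all 10 did not overlap with the controls, against 5.07% of all tested genes that were higher in this way. *Cenpe*, *Cenpf*, *Cenph*, *Cenpi*, *Cenpm* and *Cenpp* passed the filter on low values only through their day 5 libraries. Their calls and their separation are thus no support for the rise. *Cenpm* had a TPM of 0.677, 0.890, 0.364, 0.275 and 0.379 in the control libraries, 0.669, 0.478, 0.0666 and 0.529 at day 1 and 4.65, 5.99, 5.10 and 4.39 at day 5. CENP-M belongs to the constitutive centromere-associated network, and its day 5 libraries lay close together and far above the rest (log2 fold change 2.49, standard error 0.25, limma adjusted p = 7.8e-05). *Cenpf* had a TPM of 0.487, 0.266, 0.385, 0.653 and 0.928 in the control libraries, 0.403, 0.317, 0.268 and 0.399 at day 1 and 4.31, 5.08, 9.08 and 3.08 at day 5. *Cenpf*, a large protein of the outer kinetochore, was also well above both other groups in every day 5 library, with replicate 3 the highest (log2 fold change 2.45, standard error 0.28, limma adjusted p = 0.00014). Of the other network genes, *Cenpk* (2.35), *Cenph* (1.83), *Cenpp* (1.38), *Cenpi* (1.08) and *Cenpn* (0.99) were called. The kinesin gene *Cenpe* (1.43) and *Cenpa* (0.85), the histone variant itself, were called too. *Cenpn* lost its call without day 5 replicate 2 (limma adjusted p = 0.061). *Cenpw* had a TPM of 1.58, 1.37, 2.68, 2.16 and 2.11 in the control libraries, 2.06, 1.88, 1.69 and 1.52 at day 1 and 3.04, 2.72, 3.87 and 2.96 at day 5. *Cenpw*, a histone-fold protein of the same network, did not overlap with controls at day 5 but did not pass the test (log2 fold change 0.60, standard error 0.18, limma adjusted p = 0.0691). It was called without control replicate 3 (limma adjusted p = 0.047). Among *Cenph*, *Cenpi*, *Cenpk* and *Cenpm* the highest mean level was 3.49 times the lowest in controls, 5.08 times at day 1 and 3.25 times at day 5. In single libraries this ratio ran from 2.71 to 5.66 in controls and from 2.45 to 4.09 at day 5, so that the groups overlapped.

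In the KMN network, which binds the microtubule, 5 of 6 genes were called higher at day 5, with a median of 1.62. *Nuf2* had a TPM of 1.63, 0.777, 0.850, 0.839 and 0.355 in the control libraries, 0.688, 0.881, 0.788 and 0.644 at day 1 and 8.59, 8.74, 10.5 and 5.46 at day 5. *Spc24* had a TPM of 2.01, 1.25, 1.79, 1.64 and 1.78 in the control libraries, 1.27, 2.35, 3.13 and 1.18 at day 1 and 7.22, 8.39, 10.2 and 8.12 at day 5. Nuf2 and Spc24 lie at opposite ends of the NDC80 complex, and for both genes the day 5 libraries were above all 9 others (*Nuf2*, log2 fold change 2.72, standard error 0.25, limma adjusted p = 3.3e-05). For *Spc24* the log2 fold change was 2.06 (standard error 0.22, limma adjusted p = 9.6e-05). *Knl1* (1.78), the scaffold for Bub proteins, *Ndc80* (1.45) and *Spc25* (0.72) were called as well. The call of *Spc25* was lost without control replicate 1, 2, 4 or 5 or day 5 replicate 1, 2 or 3 (limma adjusted p of 0.052 to 0.078). *Dsn1* had a TPM of 6.26, 12.6, 5.09, 8.57 and 6.03 in the control libraries, 7.88, 9.61, 7.44 and 7.02 at day 1 and 11.3, 7.36, 15.2 and 9.54 at day 5. *Dsn1*, of the MIS12 complex that links the network to the centromere, overlapped between groups, with control replicate 2 above day 5 replicates 1, 2 and 4 (log2 fold change 0.53, standard error 0.23, limma adjusted p = 0.224). The mean level of *Spc25* was 10.1 times that of *Nuf2* in controls, and at day 5 the highest of the NDC80 subunits was 2.64 times the lowest. In single libraries this ratio of highest to lowest subunit lay between 5.69 and 23.7 in controls, 7.86 and 14.5 at day 1 and 2.48 and 3.0 at day 5. *Nuf2*, at a mean TPM of 0.89 in controls, and *Knl1* passed the filter on low values only through their day 5 libraries. The calls and separation of both genes are thus no support for the rise.

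**Figure D3:**
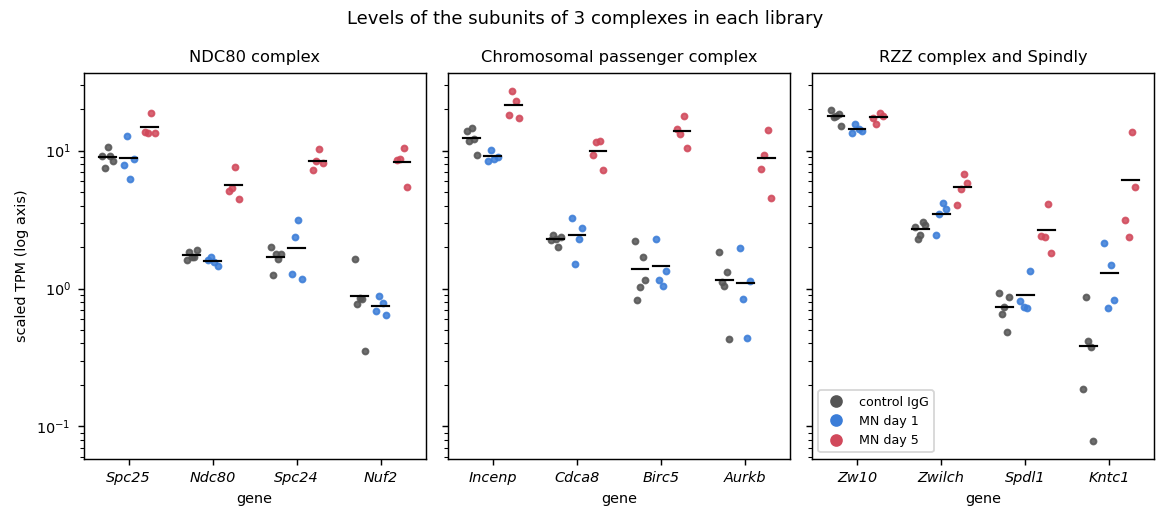
TPM (log axis) of the subunits of the NDC80 complex, the chromosomal passenger complex and the RZZ complex with Spindly in each library, with points for libraries in gray (control), blue (day 1) and red (day 5) and lines for group means. The values are TPM as deposited, although the axis names them scaled. The subunits of the first 2 complexes lie closer together at day 5, within 2.64 times and 2.43 times of each other by group mean. *Nuf2*, the lowest NDC80 subunit in controls, passed the filter on low values only through its day 5 libraries, as did *Kntc1* and *Spdl1*.

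Among spindle proteins, 6 of 7 genes were called higher at day 5, with a median of 2.25, the highest of the 9 role groups. *Ckap2* and *Aspm* passed the filter on low values only through their day 5 libraries, so their values are no support for the rise. *Ckap2* had a TPM of 1.62, 0.595, 1.07, 1.69 and 0.954 in the control libraries, 0.639, 0.407, 0.453 and 0.632 at day 1 and 7.34, 11.2, 12.7 and 5.84 at day 5. *Ckap2*, a microtubule-associated protein of the spindle, had its lowest mean at day 1 and its highest at day 5 (log2 fold change 2.54, standard error 0.25, limma adjusted p = 6.7e-05). *Tpx2* had a TPM of 1.39, 1.99, 1.35, 2.06 and 0.892 in the control libraries, 1.34, 1.23, 1.75 and 1.77 at day 1 and 9.13, 12.3, 13.1 and 8.88 at day 5. Tpx2 activates Aurora A on spindle microtubules, and its 4 day 5 libraries began at more than 4 times the highest library of the other groups (log2 fold change 2.52, standard error 0.19, limma adjusted p = 1.7e-05). *Ckap2l* (2.44), *Nusap1* (2.25), a microtubule bundling protein, and *Hmmr* (0.93), a spindle assembly factor, were called as well. *Aspm*, a spindle pole protein, was called with a log2 fold change of 1.57 (limma adjusted p = 0.0301), although control replicate 3, at 2.36, stood above day 5 replicates 1 and 4. The call of *Aspm* was lost without control replicate 1, 2, 4 or 5 or day 5 replicate 1, 2 or 3 (limma adjusted p of 0.061 to 0.087). *Ckap5* had a TPM of 25.9, 27.8, 27.2, 27.9 and 25.4 in the control libraries, 23.1, 24.8, 26.2 and 24.2 at day 1 and 26.7, 25.6, 29.2 and 26.4 at day 5. *Ckap5*, a microtubule polymerase also used outside mitosis, lay within the control range in 3 of 4 day 5 libraries (log2 fold change 0.04, standard error 0.05, limma adjusted p = 0.750).

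Sister chromatid cohesion and separation gave 3 called genes of 4, with a median of 1.68, against 2.42% of all tested genes called higher. *Cdca5* and *Sgo1* passed the filter on low values only through their day 5 libraries, so their calls and separation are no support for the rise. *Cdca5* had a TPM of 0.266, 0.420, 0.248, 0.451 and 0.103 in the control libraries, 0.470, 0.121, 0.127 and 0.449 at day 1 and 2.79, 2.53, 3.43 and 2.40 at day 5. *Cdca5* encodes sororin, which stabilises cohesin on replicated DNA, and its values were low in controls and at day 1 and higher in all 4 day 5 libraries (log2 fold change 2.07, standard error 0.24, limma adjusted p = 0.00017). *Sgo1* had a TPM of 0.654, 0.192, 0.181, 0.300 and 0.0893 in the control libraries, 0.0737, 0.0527, 0.0553 and 0.0981 at day 1 and 2.87, 1.86, 3.43 and 1.23 at day 5. The same held for *Sgo1*, the shugoshin that protects centromeric cohesin, with the lowest mean of the 3 groups at day 1 (log2 fold change 1.85, standard error 0.29, limma adjusted p = 0.00170). *Pttg1*, which encodes the separase inhibitor securin, was called (1.50). *Espl1* had a TPM of 4.07, 18.2, 7.29, 4.33 and 7.64 in the control libraries, 8.71, 3.94, 7.32 and 7.96 at day 1 and 13.8, 14.1, 8.43 and 8.76 at day 5. For *Espl1*, separase itself, control replicate 2 was the highest of all 13 libraries and the groups overlapped (log2 fold change 0.62, standard error 0.37, limma adjusted p = 0.391).

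The last 3 genes are *Foxm1* and *Mybl2*, transcription factors of late cell cycle genes, and *Cdca3*, a regulator of mitotic entry. *Cdca3* had a TPM of 1.47, 2.98, 1.08, 1.66 and 1.25 in the control libraries, 1.82, 0.938, 0.751 and 1.60 at day 1 and 7.89, 7.45, 7.19 and 3.43 at day 5. *Cdca3* was called, with day 5 replicate 4 well below the other 3 day 5 libraries and still above every control (log2 fold change 1.70, standard error 0.29, limma adjusted p = 0.00317). *Foxm1* had a TPM of 5.18, 4.30, 3.12, 3.32 and 4.62 in the control libraries, 2.99, 2.72, 3.39 and 2.62 at day 1 and 7.78, 11.4, 13.7 and 8.52 at day 5. For *Foxm1*, 3 of the 4 day 1 libraries were below the lowest control, and the day 5 libraries were above all others (log2 fold change 1.25, standard error 0.18, limma adjusted p = 0.00079). *Mybl2* had a TPM of 2.00, 1.94, 0.783, 1.39 and 0.466 in the control libraries, 1.83, 0.507, 2.12 and 1.02 at day 1 and 1.71, 1.48, 3.56 and 4.20 at day 5. *Mybl2*, which joins the MuvB core in S phase, had overlapping libraries, with day 5 replicates 1 and 2 inside the control range (log2 fold change 0.85, standard error 0.37, limma adjusted p = 0.218).

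At day 1, the comparison asks whether the same genes had moved 4 days earlier, against the same control libraries. None of the 49 genes was called by limma, beside 0.0908% of all tested genes called in either direction. At an unadjusted p under 0.05 there were 2 higher and 4 lower genes among the 49, beside 12.6% of all tested genes (1799 of 14322) in either direction. Their median log2 fold change was -0.04 (range -0.64 to 1.04), with 21 positive and 28 negative values. The highest values were those of *Kntc1* (log2 fold change 1.04, standard error 0.42, limma adjusted p = 0.344) and *Cenpk* (log2 fold change 0.78, standard error 0.38, limma adjusted p = 0.415). The lowest were those of *Ckap2* (log2 fold change -0.64, standard error 0.25, limma adjusted p = 0.340) and *Bub1* (log2 fold change -0.53, standard error 0.26, limma adjusted p = 0.412). Libraries of day 1 and control mice did not overlap for *Bub1*, which was lower in all 4 day 1 libraries, and for *Cenph*, which was higher, that is 1 gene in each direction, against 3.32% of all tested genes lower and 0.908% higher. *Bub1* had a TPM of 0.321, 0.863, 1.02, 0.297 and 0.214 in the control libraries, 0.157, 0.174, 0.196 and 0.183 at day 1 and 2.33, 2.98, 3.39 and 2.53 at day 5. *Cenph* had a TPM of 0.159, 0.376, 0.217, 0.366 and 0.268 in the control libraries, 1.08, 0.598, 0.561 and 0.774 at day 1 and 2.07, 2.58, 2.08 and 2.14 at day 5. *Cenph* thus lay above the controls at day 1 and higher again at day 5, with a day 1 log2 fold change of 0.70 (limma adjusted p = 0.244). A p that misses the threshold with 4 and 5 mice does not show that the genes were equal.

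Set directly against day 1, 36 of the 49 genes were called higher at day 5 and 0 lower, against 1.41% of all tested genes called higher. The median log2 difference was 1.58 (range 0.12 to 3.19), and all 49 were positive. Day 5 and day 1 libraries did not overlap for 41 genes, against 6.12% of all tested genes that were higher in this way. Of the 31 genes that pass the filter on low values without the day 5 libraries, 19 were called. The other members passed it through their day 5 libraries, so their calls and their separation are no support for the difference. The largest differences were those of *Ckap2* (log2 fold change 3.19, standard error 0.27, limma adjusted p = 4.6e-05) and *Birc5* (log2 fold change 2.88, standard error 0.25, limma adjusted p = 5.8e-05). The smallest were those of *Ckap5* (log2 fold change 0.12, standard error 0.06, limma adjusted p = 0.325) and *Mad1l1* (log2 fold change 0.19, standard error 0.08, limma adjusted p = 0.300). Of the 41 genes called against controls, *Plk4*, *Cenpk*, *Spc25*, *Zwilch* and *Kntc1* were not called against day 1, with limma adjusted p-values of 0.0551, 0.0594, 0.0591, 0.112 and 0.0687. *Kntc1* and *Cenpk* were the 2 genes with the highest day 1 values. This comparison shares its day 5 libraries with the first and its day 1 libraries with the second.

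Further genes of chromosome segregation were taken from lists written by role, and their counts at day 5 stand against the 2.42% of all tested genes called higher. Of 22 other kinetochore and centromere genes, 5 were called higher and 0 lower, with a median log2 fold change of 0.54. Among the called genes were *Ska1* (1.65) of the microtubule-binding SKA complex, *Sgo2a* (1.52), a shugoshin, *Trip13* (1.13), the ATPase that disassembles the checkpoint complex, and *Oip5* (1.05), which prepares centromeres for new CENP-A. *Ska1* and *Sgo2a* reached a TPM of 1 only in day 5 libraries, so their calls are no support for a rise. *Cenpq* (-0.01) and *Mis18a* (0.00) had the smallest values, and *Hjurp*, the CENP-A chaperone, had a value of 0.21 without passing the test.

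Of 18 genes of the anaphase-promoting complex and its cofactors, 2 were called, with a median of 0.08. These were *Ube2c* (3.26), its ubiquitin-conjugating enzyme, with a mean TPM of 2.60 in controls and 28.9 at day 5, and *Fbxo5* (0.82), its inhibitor Emi1. The subunits themselves lay between -0.22 (*Anapc15*) and 0.23 (*Anapc7*), with *Anapc5* next lowest at -0.12 and none called. Of 12 genes of the cohesin ring and its regulators only the acetyltransferase *Esco2* (2.05) was called, and the median was 0.00. *Stag1* was second at 0.08, and *Esco1* (-0.16) and *Nipbl* (-0.09) were lowest. Of 24 tested centrosome and spindle pole genes *Tacc3* (1.43), a spindle microtubule protein, was the 1 called, with a median of 0.04. *Haus8* (0.35) followed without passing, and *Tubgcp3* (-0.24) and *Tubgcp6* (-0.15) were lowest. *Stil*, with a mean TPM of 0.222 in controls and 1.08 at day 5, did not pass the filter. None of the 5 genes of the MuvB core was called, with a median of 0.16 and values from 0.00 (*Lin52*) and 0.07 (*Lin37*) to 0.18 (*Rbbp4*) and 0.31 (*Lin9*). At day 1 no gene of these 5 lists was called, and the difference between these lists and the 49 genes was not tested.

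**Figure D4:**
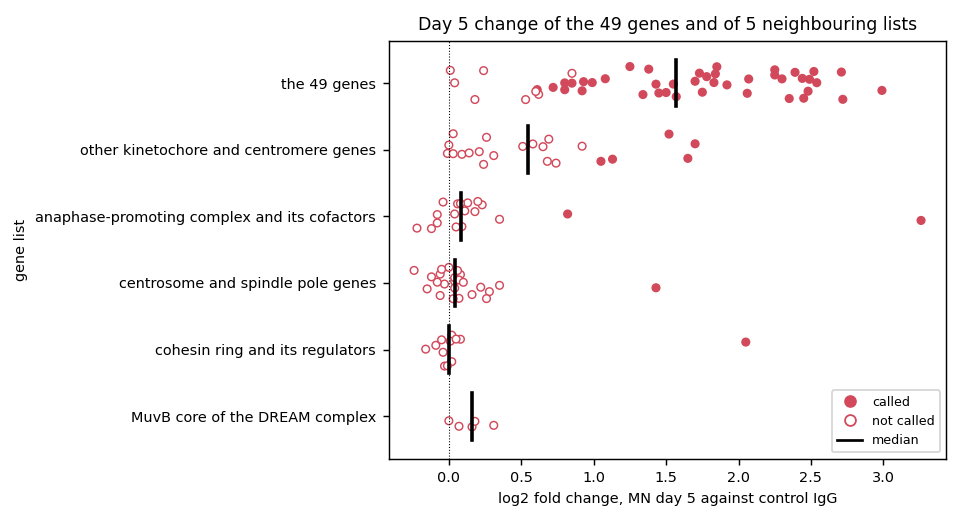
Each point is the limma log2 fold change of 1 tested gene at day 5 against control, in rows for the 49 genes and 5 neighbouring lists, with filled points for called genes and a line at the median. The median is 1.57 for the 49 genes and between 0.00 and 0.54 for the other lists, in which single genes such as *Ube2c* (3.26) and *Esco2* (2.05) stand apart.

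The libraries had the marker genes of glomeruli, and markers of other cells were compared between the groups because a change in cell content would touch every result above. Summed TPM of 8 podocyte markers was 6790 to 9170 in controls and 7670 to 7940 at day 5, that of 7 mesangial markers 2090 to 2930 and 2790 to 2950, and that of 7 endothelial markers 4690 to 5920 and 5520 to 5920. None of these genes was called in any of the 3 comparisons. Below the fold threshold, at day 5, *Synpo* of podocytes was lower than in controls (log2 fold change -0.46, limma adjusted p = 0.00197), and *Serpine2* of mesangial cells (0.42, limma adjusted p = 0.0113) and *Emcn* of endothelium (0.29, limma adjusted p = 0.0127) were higher, each without overlap between the groups. All 7 endothelial markers had a positive value, 4 of them at an unadjusted limma p under 0.05. The 8 macrophage and leukocyte markers summed to 27.1 to 47.3 in controls, 31.1 to 56.0 at day 1 and 26.3 to 50.6 at day 5, 3 of them had a mean under 1, and none of the 6 that were tested was called. *Lyz2* alone gave 18.8 to 32.7 of this sum in controls. All 6 had a positive value at day 5, the highest that of *Ptprc* (0.71, limma adjusted p = 0.131), and the untested macrophage gene *Adgre1* was at 0.0323 to 0.210 in controls and 0.211 to 1.60 at day 5, without overlap. Proximal tubule markers summed to 313 to 878 in controls, 578 to 841 at day 1 and 444 to 593 at day 5. With their score as a covariate, 41 of the 49 genes were called at day 5 against control. Against day 1, 32 were called with this covariate in place of 36. As the day 5 sums lay inside the control range, the fit against control cannot decide whether tubular content had a part. Markers of the loop, distal tubule and collecting duct summed to 255 to 516 in controls, 494 to 897 at day 1 and 345 to 477 at day 5, and 2 of the 5 tested were called lower at day 5 than at day 1, beside 0.398% of all tested genes (57 of 14322). The 3 parietal epithelial markers summed to 11.5 to 15.4 in controls, 16.2 to 20.0 at day 1 and 18.3 to 22.9 at day 5, with *Cldn1* called at day 5 (1.08). The part of these other markers in the rise of the 49 genes was not tested.

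**Figure D5:**
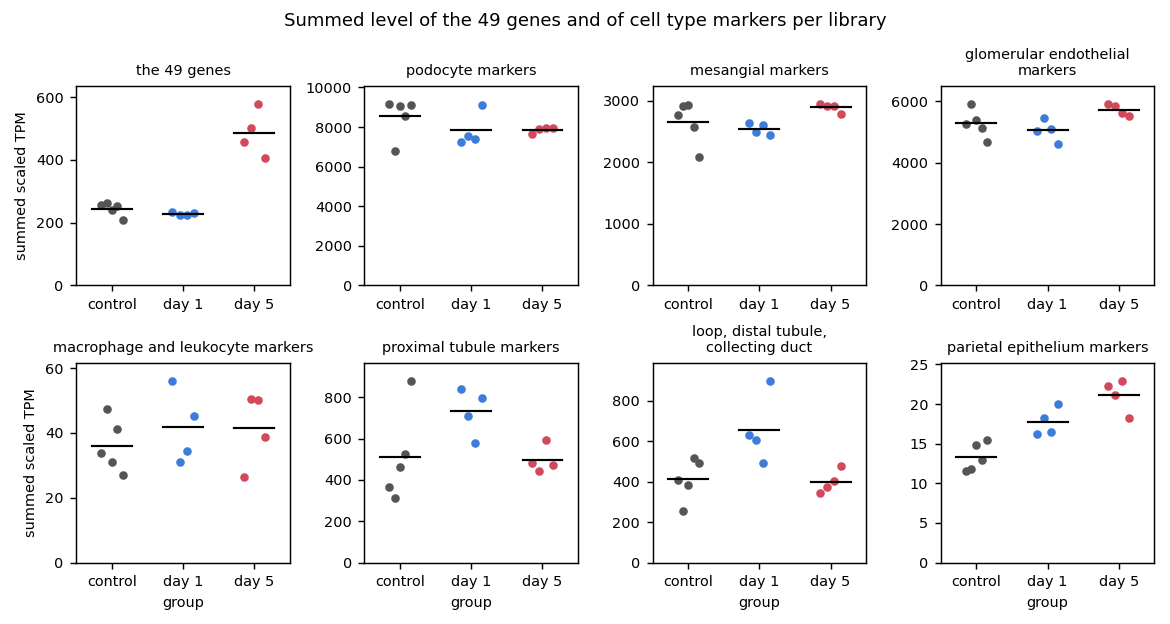
Summed TPM per library (points) and group mean (line) for the 49 genes and for 7 lists of cell type markers, each axis starting at 0. The values are TPM as deposited, although the axis names them scaled. The 49 genes lie at 406 to 579 in day 5 libraries against at most 263 in the others. The podocyte, mesangial, endothelial, leukocyte and both tubular sums of day 5 libraries overlap with the controls. The parietal epithelial sums of day 5 libraries, at 18.3 to 22.9, lie above those of the controls, at 11.5 to 15.4.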

How the data were processed

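Glomerular RNA of 13 mice was sequenced, and the authors trimmed the reads with Trimmomatic 0.39 after FastQC 0.11.9 and quantified them with kallisto 0.46.2 on GRCm39. The authors deposited TPM per gene symbol, which summed to 989774 to 996064 per library and carry no read depth. Groups came from the sample labels. The members and lists were chosen with earlier results of these data known, so no count here is independent evidence.

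Libraries were put on a common scale with median-of-ratios factors of 0.955 to 1.04, taken from the 15772 genes that were never at 0. The scaled TPM plus 0.5 was then log2 transformed. The filter kept genes that reached a TPM of 1 in 4 or more libraries. limma 3.58.1 (R 4.3.3) fitted the 3 group means with trended eBayes, and Benjamini-Hochberg adjustment ran over the 14322 tested genes of each contrast. Calls needed both an adjusted p-value below 0.05 and a log2 fold change beyond 0.5 in either direction. The procedure was tested on simulated data. The authors tested counts with DESeq2, and counts were not used here. P-values measure the spread between mice.

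Values in every library were given, per role group, for the 2 called genes with the largest day 5 change and the tested gene with the smallest, for *Bub1* and *Cenph*, whose day 1 libraries did not overlap with controls, and log2 fold changes for every gene. Of the other pathway genes, the 2 largest and 2 smallest changes of each list were named, and further ones, such as other called genes of a list, were chosen after their values were seen. A gene under this rule is not reported here. Sequences came from RefSeq promoters (GRCm38.p6) and were placed on GRCm39 by exact match. No window was found for *Aurkb*, *Foxm1*, *Incenp*, *Spc24*, *Tpx2* and *Zwilch*.

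The alternatives were a pseudocount of 0.1 or 1, unscaled TPM, quantile normalization, no filter, a stricter filter (TPM 1 or more in all libraries), untrended eBayes, array quality weights, a block for the replicate number, a proximal tubule score as a covariate, only the 2 compared groups, the adjusted p-value alone, a shorter promoter window, and leaving out each library in turn. Plots used matplotlib 3.10.9 (Python 3.11.15).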

Additional observations from a re-analysis of the deposited data

Results flagged for a closer look

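A single library stood far from the others of its group for 8 genes, out of 147 groups of values examined. Chance alone would mark about 1 group in 20, or 7.35 of these. In control mice, *Aspm* was at 2.36 in replicate 3 against 0.164 to 0.435 in the other 4, *Cenpe* at 1.09 in replicate 3 against 0.334 to 0.490, *Espl1* at 18.2 in replicate 2 against 4.07 to 7.64 and *Aurka* at 1.68 in replicate 2 against 1.79 to 1.81, all in TPM. At day 1, *Spdl1* was at 1.33 in replicate 4 against 0.721 to 0.812. At day 5, *Spc25* was at 18.8 in replicate 3 against 13.4 to 13.7, *Cdca3* at 3.43 in replicate 4 against 7.19 to 7.89 and *Cenph* at 2.58 in replicate 2 against 2.07 to 2.14.

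The day 5 change against control exceeded the day 1 change for 36 genes, by the limma test of day 5 against day 1 libraries (Benjamini-Hochberg adjusted p of 4.3e-05 to 0.043). Since both changes use the same controls, this is the difference of the day 5 and day 1 log2 means. Differences of at least 2.00 were those of *Ckap2* 3.19, *Birc5* 2.88, *Nuf2* 2.79, *Cenpf* 2.70, *Cenpm* 2.60, *Aurkb* 2.53, *Bub1b* 2.50, *Tpx2* 2.47, *Nusap1* 2.47, *Ckap2l* 2.47, *Bub1* 2.28, *Sgo1* 2.26, *Nek2* 2.21, *Cdca5* 2.08 and *Cdc20* 2.01. Differences between 1.50 and 2.00 were those of *Ttk* 1.96, *Cdca3* 1.96, *Spc24* 1.91, *Knl1* 1.91, *Cdca8* 1.82, *Aspm* 1.81, *Plk1* 1.79, *Foxm1* 1.62, *Aurka* 1.58 and *Ndc80* 1.54. The remaining ones were those of *Cenpe* 1.34, *Cenpn* 1.31, *Cenpp* 1.27, *Pttg1* 1.25, *Incenp* 1.17, *Mad2l1* 1.15, *Spdl1* 1.15, *Cenph* 1.13, *Hmmr* 0.90, *Cenpi* 0.89 and *Cenpa* 0.83. In each of these genes the day 5 libraries had the higher mean. Of these 36 genes, 19 are among the 31 that pass the filter on low values without the day 5 libraries.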

How the results depend on the processing

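At day 5, 37 to 41 of the 49 genes were called when 1 library was left out, with medians of 1.50 to 1.77, and 31 to 38 were called against day 1, with medians of 1.44 to 1.68. At day 1 no gene was called by limma under any alternative, and the median ran from -0.07 to 0.01 without 1 library. Of the 41 genes called at day 5, 37 kept the call in all 13 fits without 1 library and in every other setting in which they were tested. The 4 others were *Plk4*, *Cenpn*, *Spc25* and *Aspm*, which beside fits without 1 library lost it under the replicate block (limma adjusted p = 0.12 for *Spc25*, 0.056 for *Cenpn* and 0.052 for *Aspm*), with no filter (0.055 for *Plk4* and *Spc25*) or with only the 2 compared groups (0.059 for *Aspm*), and *Cenpw* gained a call without the trend (limma adjusted p = 0.037). A filter that asks for a TPM of 1 or more in all libraries left 23 of the 49 genes, of which 16 were called at day 5 (median 0.85) and 13 against day 1 (median 0.90), fewer because it removes genes that are low in controls. A pseudocount of 0.1 raised the day 5 median to 1.93, since low genes then count as changing more. *Zw10*, near 0 at day 5, was at -0.03 without further scaling, -0.04 under the replicate block, -0.04 with array quality weights and -0.04 to 0.05 without 1 library, and the cause was not tested. The labels name no pairs of mice. Same-number libraries correlated at -0.0563 to 0.0913 in 12 pairs, beside -0.143 to 0.146 in 44 pairs of unlike number. This check cannot exclude pairing or a shared batch. With the replicate block 38 genes were called at day 5, 0 at day 1 and 33 against day 1. In the shorter promoter window, from 150 bases before the start, 28 of the 47 windows held a CHR and 29 a CCAAT, and an E2F-type motif (TTT, then C or G at 2 positions, then CGC) was found in 1 in place of 2. Scaling alternatives moved the median of all genes by less than 0.1. Without read counts, no floor of detection can be given for genes below a TPM of 1, and a change of such a gene rests on few reads of unknown number.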
